A study of Macaca fascicularis with 44 samples.

Results

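In cultured brain endothelial cells (BECs) of the cynomolgus monkey, 187 of 28623 gene identifiers parted brainstem from hippocampus in the same direction in every preparation that gave both structures and also stayed within set limits in cortical culture. Of these genes, 111 were higher in brainstem than in hippocampus by at least 1.3-fold in all 6 preparations, and 76 were lower by at least 1.3-fold in all 6. They were chosen by FPKM (fragments per gene after division by its length and by library size), with a mean of 1 FPKM or more in either structure. The cortical cells set a further limit. The mean after 7 days of primary culture had to lie within 8-fold of that of the isolated microvessels, and the mean of re-plated cells between 0.67 and 1.5 times that of primary culture. The differences between brainstem and hippocampus are therefore given as a description, with no test. What these genes did in striatum, cerebellum, cortex and in a preparation whose hippocampus took no part in the choice is given after them.

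Brain endothelial cells line the microvessels of the brain, and their tight junctions, efflux pumps and nutrient carriers form the blood-brain barrier, together with pericytes and the end-feet of astrocytes. The barrier is not the same in every region, and endothelial cells lose part of their brain programme once they are taken out of the tissue. Cells of different structures grown in one medium show which differences in RNA the cultures have. Only the cortex gave uncultured vessels, so a difference kept from the tissue cannot be told from one that arose in culture. The identifiers in the deposited tables are Ensembl identifiers without symbols, and 0 of them matched the reference table used here, so no role can be given to any member. The markers of endothelial cells, pericytes, fibroblasts and glia could not be looked up for the same reason, and the cell type rests on the labels alone.

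All libraries came from male and female adult Macaca fascicularis of Mauritian suppliers, animals released from pre-clinical studies, and the labels name no allele or treatment that separates the structures. At P0D7, the fraction described here, vessels isolated by enzymatic digestion and centrifugation were grown for 7 days in endothelial medium (EBM-2 with the EGM-2 MV supplements) with puromycin at the start to select endothelial cells. Brainstem gave 6 P0D7 libraries, hippocampus and striatum 7 each, cerebellum 2 and cortex 8. The cortex also gave 6 P1D7 libraries of cells re-plated for a further 7 days and 8 P0D0 libraries of the microvessels as isolated. The labels carry codes from BBB027 to BBB038, which are read here as preparations, although what a code stands for is not said. Brainstem and hippocampus share the codes BBB027 to BBB032, striatum shares 5 of them, cortex all 6, and cerebellum BBB029. The code BBB035 has hippocampus, striatum, cerebellum and cortex but no brainstem. Each library is a pellet of many cells, so fewer cells of a kind and less RNA per cell cannot be told apart.

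Total counts ran from 8633089 to 24450445 read pairs in the P0D7 libraries, and the lowest was the hippocampus library of BBB029. Libraries of a code were correlated across structures, although pairs of different codes were not computed as a baseline. After the mean of each structure was taken away, libraries of the same code correlated at 0.112 to 0.839 across genes in the 37 pairs without cerebellum. The tests covered the 12114 genes that reached 1 FPKM in 3 or more of the 30 P0D7 libraries, and all 111 and all 76 members passed that filter.

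The members lay on the same scale as other expressed genes. The median of the means over the 30 P0D7 libraries was 15.4 FPKM for the genes higher in brainstem (0.638 to 651 FPKM) and 6.58 FPKM for those lower in brainstem (0.620 to 355 FPKM), against 11.6 FPKM over all genes tested. The gene lengths behind the FPKM values had medians of 3016 and 2221 bases, against 2389 bases over all genes tested. The geometric mean of the 6 folds had a median of 1.85 for the higher genes (1.44 to 5.54, in the 110 genes without a library at 0) and 1.90 for the lower genes (1.41 to 11.4, in 74 genes). Most members were close to the limit that chose them. Only 33 of the 111 and 31 of the 76 differed by at least 1.5-fold in every code, and 9 and 8 by at least 2-fold. The smallest folds just inside the limit were 1.301 among the higher and 1.301 among the lower genes, and just outside it 1.299 and 1.2998. Before the limits on the cortex were applied, 210 genes were higher and 236 were lower in brainstem in all 6 codes.

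**Figure D1:**
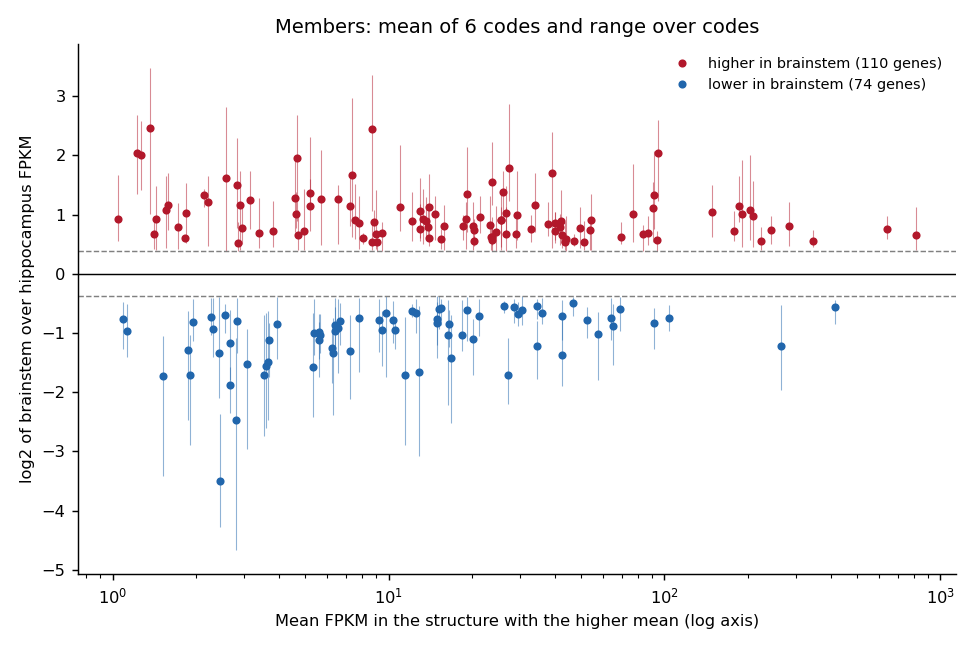
The fold of each member, as the log2 of brainstem over hippocampus FPKM (y axis), against its mean FPKM in the structure with the higher mean (x axis, log scale). Points are the mean over the 6 codes, vertical lines run from the smallest to the largest of the 6 folds, and dashed lines mark 1.3-fold. The 110 higher genes (red) and 74 lower genes (blue) without a library at 0 cover levels from about 1 FPKM upwards, and 33 and 31 members are beyond 1.5-fold in every code.

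The choice required the separation within codes, and across codes the structures mostly overlapped. Over all libraries, with the hippocampus of BBB035 included, every brainstem library was above every hippocampus library for 3 of the 111 genes, and below it for 6 of the 76. Among all genes tested, 0.182% (22 of 12114) had every brainstem library above and 0.264% (32) every brainstem library below, and since that contrast chose the members nothing is read from the difference. Within codes, the median log2 ratio of brainstem to hippocampus over the higher genes was 0.61 in BBB027, 1.06 in BBB028, 0.87 in BBB029, 0.92 in BBB030, 0.87 in BBB031 and 0.65 in BBB032. Over the lower genes it was -0.71, -1.02, -1.13, -0.84, -1.04 and -0.71 in the same order of codes. The medians over all genes tested lay between -0.04 and 0.01.

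Among members with a clear signal in both structures, ENSMFAG00000038573 had the largest smallest fold of the genes higher in brainstem. Its FPKM ran from 6.27 to 48.0 with a median of 28.7 in the 6 brainstem libraries, and from 1.71 to 18.7 with a median of 9.76 in the 7 hippocampus libraries. The ranges of the structures overlapped, while the ratio within a code lay between 2.36 in BBB027 and 7.27 in BBB028. Levels differed more between codes than between the structures of a code. BBB030 was the lowest code in both structures, with 6.27 FPKM in brainstem and 1.71 FPKM in hippocampus, and BBB029 the highest, with 48.0 FPKM in brainstem and 18.7 FPKM in hippocampus. In striatum it ran from 2.07 to 69.6 FPKM (median 16.7), in cerebellum it had 35.8 and 8.10 FPKM, and in cortex it ran from 3.32 to 34.3 FPKM (median 14.5). The highest value of all P0D7 libraries was thus in striatum, in BBB029, and not in brainstem. Between striatum and cortex the fitted log2 difference was 0.68 with a standard error of 0.60 (adjusted p = 0.731, edgeR's quasi-likelihood test with Benjamini-Hochberg adjustment), which is within the spread of the libraries. With the code as a block it was 0.24 with a standard error of 0.41.

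ENSMFAG00000002871 was the second gene higher in brainstem. It had 112, 139.9, 132, 50.5, 86.8 and 45.1 FPKM in the brainstem of BBB027 to BBB032, against 47.8, 24.9, 31.3, 9.42, 32.7 and 7.46 FPKM in the hippocampus of the same codes, ratios of 2.35 to 6.05. The hippocampus of BBB035, which did not take part in the choice, had 115 FPKM, more than any of the other 6 hippocampus libraries and above 4 of the 6 brainstem libraries. In that code the cortex was higher still, at 345 FPKM, while the other 7 cortical P0D7 libraries ran from 16.9 to 98.8 FPKM. Striatum ran from 23.9 to 202 FPKM (median 57.2), and the cerebellum had 27.2 FPKM in BBB029 and 128 FPKM in BBB035. Each of the 5 structures had a library at or above 115 FPKM. Striatum and cortex differed by 0.13 on the log2 scale with a standard error of 0.65 (adjusted p = 0.965, edgeR's quasi-likelihood test with Benjamini-Hochberg adjustment). That value depended on the fit and on single libraries. With the code as a block it was 0.68 with a standard error of 0.47 (adjusted p = 0.395, edgeR's quasi-likelihood test), and without the block it ran from -0.21 without the striatum of BBB028 to 1.06 without the cortex of BBB035.

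Of the genes lower in brainstem, ENSMFAG00000037970 came first. Brainstem had 7.64, 25.03, 5.33, 6.01, 3.08 and 8.06 FPKM in BBB027 to BBB032, against 18.9, 52.8, 21.7, 22.0, 10.3 and 37.2 FPKM in hippocampus. The hippocampus was 2.11 to 4.61 times higher within a code, although the brainstem of BBB028 was above 5 of the 7 hippocampus libraries. The hippocampus of BBB035 had 6.92 FPKM, lower than the other 6 and within the brainstem range. In striatum the gene ran from 10.6 to 30.02 FPKM (median 16.8), against 2.98 to 23.6 FPKM (median 5.67) in cortex, and the cerebellum had 7.38 and 2.26 FPKM. Striatum took no part in choosing the gene, and cortex took part only through the limits on its means. Striatum and cortex differed by 1.02 on the log2 scale with a standard error of 0.49 (adjusted p = 0.595, edgeR's quasi-likelihood test with Benjamini-Hochberg adjustment). With the code as a block in the same test the difference was 1.27 with a standard error of 0.26 and an adjusted p of 0.00940, and striatum was above cortex in each of the 7 codes that have both. This gene was thus higher in hippocampus than in brainstem and, within codes, higher in striatum than in cortex. With the block it was also lower in cerebellum than in striatum, by 1.45 on the log2 scale (adjusted p = 0.0467, edgeR's quasi-likelihood test), in 2 of 2 codes.

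ENSMFAG00000001632, the second of the lower genes, had 0.9345 to 5.26 FPKM in brainstem (median 2.57) and 1.41 to 9.60 FPKM in hippocampus (median 5.36), with hippocampus 1.82 to 3.60 times higher within a code. The hippocampus of BBB035 was again the lowest of its structure, at 1.41 FPKM. Striatum ran from 2.01 to 7.56 FPKM, cerebellum had 3.27 and 0.569 FPKM, and cortex ran from 0.502 to 8.68 FPKM. The structures overlapped throughout. Striatum and cortex differed by -0.05 on the log2 scale with a standard error of 0.47 (adjusted p = 0.980, edgeR's quasi-likelihood test with Benjamini-Hochberg adjustment). The sign turned with the code as a block, to 0.37 with a standard error of 0.37 (adjusted p = 0.573, edgeR's quasi-likelihood test), and leaving out 1 library in turn without the block moved it between -0.32 and 0.20, so no direction can be given.

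**Figure D2:**
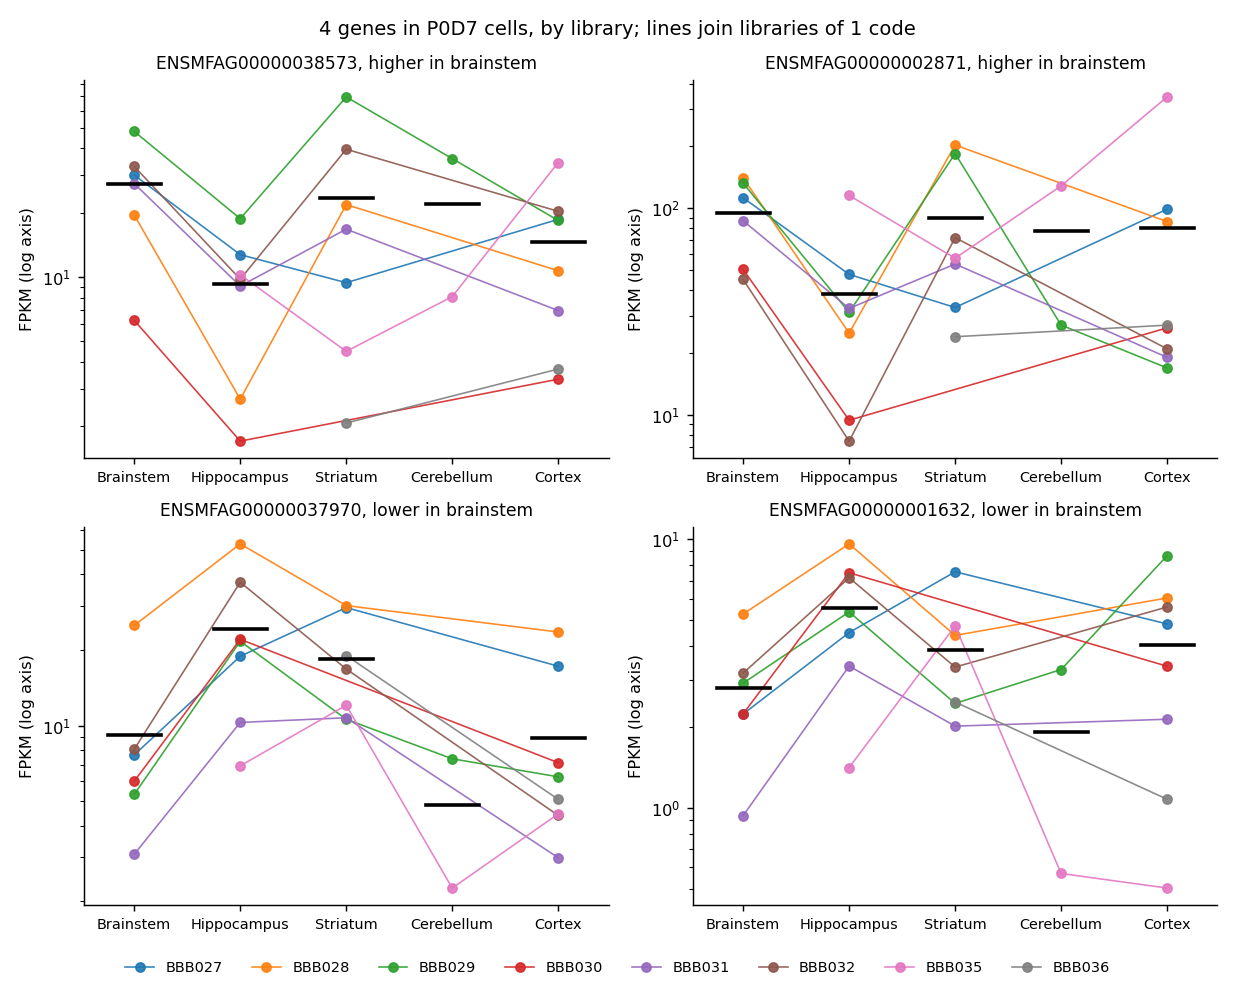
FPKM (y axis, log scale) of the 4 named genes in each P0D7 library of brainstem, hippocampus, striatum, cerebellum and cortex (x axis), with a point per library, lines joining the libraries of a code and black bars for the means. All 6 lines between brainstem and hippocampus run in one direction in each panel, as the choice of the genes required. From striatum to cortex, 3 of the genes change both ways, and ENSMFAG00000037970 is lower in cortex in all 7 codes. The lines of BBB029 and BBB035 pass through cerebellum between these structures.

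The 2 sets were then followed over the 30 P0D7 libraries. Each gene was set against its own mean log2 CPM (counts scaled to library size) over these libraries, and the median over the set was taken in each library. For the 111 genes this median ran from -0.26 to 0.77 in the 6 brainstem libraries, from -1.001 to 0.38 in hippocampus, from -0.51 to 0.83 in striatum, was -0.37 and -0.06 in cerebellum, and ran from -0.57 to 0.94 in cortex. For the 76 genes it ran from -0.83 to -0.01 in brainstem, from -0.07 to 0.77 in hippocampus, from -0.92 to 0.52 in striatum, was -0.56 and -0.33 in cerebellum, and ran from -0.74 to 0.40 in cortex. The ranges of striatum and cortex each overlapped those of both brainstem and hippocampus. The extremes of the 111 genes were the cortex of BBB035 at 0.94 and the hippocampus of BBB030 at -1.001.

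**Figure D3:**
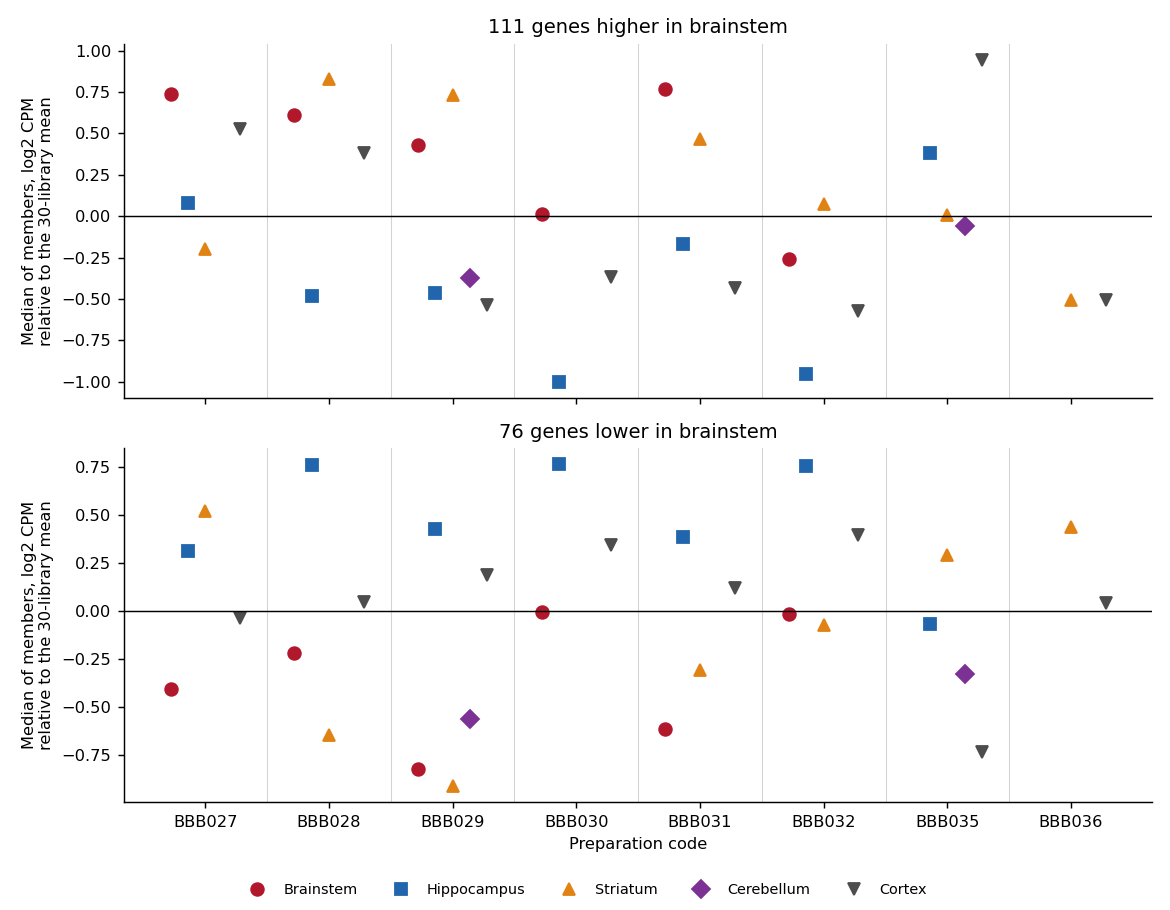
Median of the 111 genes higher in brainstem (top) and of the 76 lower in brainstem (bottom) in each P0D7 library, as log2 CPM relative to each gene's mean over the 30 libraries (y axis), by preparation code (x axis) and structure (symbols, in the order of the legend within a code). Brainstem lies above hippocampus at the top and below it at the bottom in the 6 codes that have both, while striatum is on the brainstem side in BBB028, BBB029, BBB031 and BBB032 and beyond hippocampus in BBB027 and BBB035.

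Striatum was nearer to brainstem than to hippocampus on average. Over the 5 codes that all of brainstem, hippocampus, striatum and cortex share, mean striatum levels were nearer to brainstem for 108 of the 111 genes and 72 of the 76. On a scale where hippocampus is 0 and brainstem is 1, the median position of striatum was 0.97 for the higher and 0.80 for the lower genes. Cortex lay between the structures, at 0.41 and 0.43 over 6 codes, nearer to brainstem for 46 of the 111 genes and 31 of the 76. The cerebellum, in BBB029 alone, was nearer to hippocampus for 81 of the 111 genes and nearer to brainstem for 52 of the 76, with positions of 0.14 and 0.81.

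The average hides a reversal between codes. The median log2 ratio of striatum to hippocampus over the 111 genes was 1.38 in BBB028, 1.17 in BBB029, 0.59 in BBB031 and 0.94 in BBB032, but -0.23 in BBB027 and -0.37 in BBB035. In the first 4 of these codes at least 108 of the genes were higher in striatum, and in BBB027 and BBB035 only 24 and 10 were. The 76 genes gave the mirror image, with -1.43, -1.20, -0.65 and -0.89 in the 4 codes and 0.18 and 0.33 in BBB027 and BBB035. The same fold limit in every code, with the same limits on level and cortex, was met over the 5 shared codes by 229 genes between brainstem and hippocampus, 96 between brainstem and cortex and 61 between cortex and hippocampus. It was met by 35 genes between striatum and cortex, 17 between striatum and hippocampus and 10 between brainstem and striatum. These comparisons share libraries, and their counts are set side by side as a description.

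Striatum against cortex is a comparison that played no part in choosing the members beyond the limits on the cortical means. It was fitted together with the brainstem and hippocampus libraries, which did choose them. Those libraries entered the estimate of the spread and, with the block, that of the codes. The calls for striatum and cerebellum are therefore not wholly independent of the choice. With edgeR's quasi-likelihood test, a fold of at least 1.5 and an adjusted p of at most 0.05 over all genes tested, 0 of the 187 members were called, where 0.0991% of all genes were (12 of 12114). At an unadjusted p below 0.05 there were 6 of the 111 and 7 of the 76, or 5.41% and 9.21%, against 8.28% of all genes, and DESeq2 called 1 member, where it called 0.239% of all genes. The codes pair these libraries, and with the code as a block 2.18% of all genes were called, 0.966% higher and 1.21% lower in striatum. Of the 111 genes, 4 (3.60%) were then called higher in striatum and 0 lower, and of the 76, 1 was called higher and 2 (2.63%) lower. The median fitted log2 difference with the block was 0.25 for the 111 and -0.08 for the 76, against 0.00 for all genes. Individual libraries moved the count of 7 members called with the block. Without the striatum library of BBB035 it was 17, without the striatum of BBB027 it was 12 and without the cortex of BBB035 it was 11. It was 4 without the striatum of BBB028, BBB029, BBB031 or BBB032, or without the cortex of BBB029 or BBB031. The share of all genes called was not computed with a library left out. Whether the members moved more than other genes is therefore not known.

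The small count came with shifts within codes that went opposite ways. The median log2 ratio of striatum to cortex over the 111 genes was 0.49 in BBB028, 1.26 in BBB029, 0.84 in BBB031 and 0.63 in BBB032, while it was -0.63 in BBB027, -0.88 in BBB035 and -0.07 in BBB036. For the 76 genes it was -0.55, -1.11, -0.44 and -0.48 in the first 4, and 0.60, 1.05 and 0.33 in the others. The medians of the higher and the lower genes had opposite signs in 7 of 7 codes. In BBB029, 110 of the 111 genes were higher in striatum than in cortex, and in BBB035, 106 of the 111 were lower in striatum. BBB036 showed no such shift of the 111 genes, since 42.3% of them were higher in striatum, against 44.8% of all genes tested, while 60 of the 76 were higher there. The medians over all genes tested stayed between -0.10 and 0.07 in these codes. The shared direction of the members within a code was not tested.

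**Figure D4:**
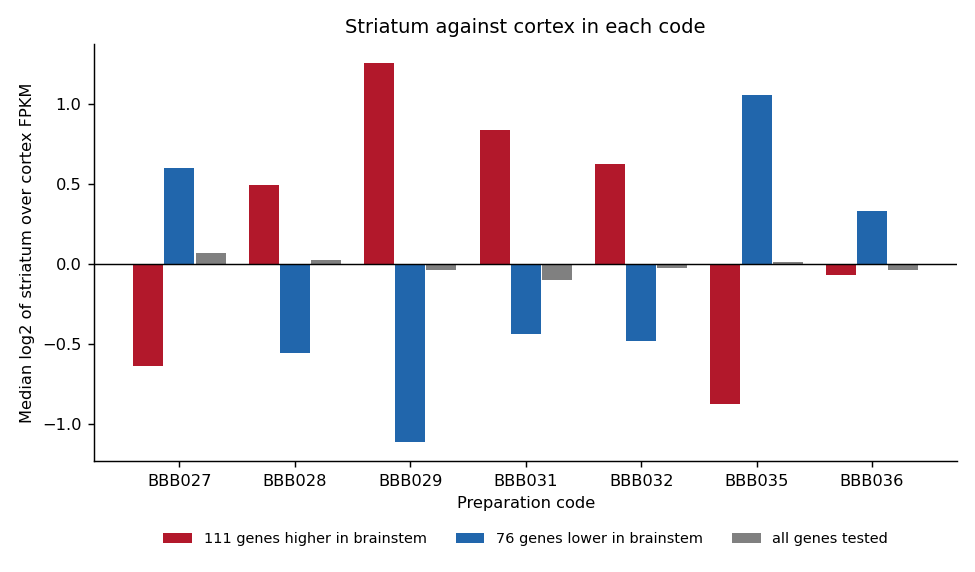
Median log2 ratio of striatum to cortex FPKM (y axis) in each of the 7 codes that have both (x axis), over the 111 genes higher in brainstem (red), the 76 lower in brainstem (blue) and all 12114 genes tested (grey). The red and blue bars point in opposite directions in every code, with red upwards in BBB028, BBB029, BBB031 and BBB032 and downwards in BBB027 and BBB035 and, at -0.07, barely below 0 in BBB036.

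Over the striatum and cortex libraries of those 7 codes, the members varied more than other genes. The choice required a fold between libraries in every code, which favours genes of large spread, so no result is read from this. The median standard deviation of log2 CPM was 0.66 for the 111 and 0.69 for the 76, against 0.31 over all genes tested. The code held a median of 50.8% and 49.9% of that variation in the 2 sets, and 62.5% over all genes. The structure held 4.00% and 3.09%, and 5.08% over all genes. What was left was 40.2% and 43.1% in the members and 27.3% over all genes. This remainder joins how the difference between the structures varies from code to code with the variation of single libraries. With a single library per structure and code these cannot be told apart.

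The cerebellum gave 2 libraries, and its comparisons have the least replication. Against cortex, edgeR's quasi-likelihood test called 0 of the 187 members, where 0.132% of all genes were called. The unadjusted p was below 0.05 for 2 of the 111 and 15 of the 76, or 1.80% and 19.7%, against 11.5% of all genes, and DESeq2 called 1, where it called 0.859% of all genes. With the block 2 members were called, both lower in cerebellum, where 2.29% of all genes were called and 1.53% were lower. Against striatum, 0 members were called without the block, where 0.19% of all genes were. The unadjusted p was below 0.05 for 7 of the 111 and 13 of the 76, or 6.31% and 17.1%, against 12.9% of all genes, and DESeq2 called 0, where it called 1.22% of all genes. With the block, 18 of the 111 genes (16.2%) were lower in cerebellum than in striatum, and of the 76, 1 was higher and 3 (3.95%) were lower. Among all genes 6.46% were called, 4.48% lower in cerebellum and 1.98% higher. The count of 22 became 0 without the cerebellum of BBB029, which is the code where striatum and cerebellum differed most over the 111 genes. The median log2 ratio of cerebellum to striatum was -1.02 in BBB029 and 0.07 in BBB035 for the 111 genes, and 0.37 and -0.43 for the 76. In fits with a library left out the share of all genes called was not computed, so these counts have no background. Without the striatum of BBB029 the count was 3, and without the striatum of BBB035 it was 57. It lay between 9 and 14 without the cerebellum of BBB035, the striatum of BBB031 or BBB032, the hippocampus of BBB035 or the cortex of BBB035, and was 35 without the cortex of BBB029 and 42 without the striatum of BBB027.

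In BBB035, which took part in the choice only through its cortical libraries, the hippocampus library had no brainstem to be set against. It was above the striatum of the same code for 101 of the 111 genes, with a median log2 ratio of 0.37, and below it for 61 of the 76, with a median of -0.33. The median over all genes tested was 0.01. In BBB027 the hippocampus was also above striatum over the 111 genes and below it over the 76, with medians of 0.23 and -0.18. Brainstem itself had no single side relative to striatum. Its median log2 ratio to striatum over the 111 genes was 0.88 in BBB027 and 0.28 in BBB031, but -0.31 in BBB028, -0.26 in BBB029 and -0.27 in BBB032, and over the 76 genes it was -0.88 and -0.38 in the first 2 of these codes and 0.35, 0.13 and 0.22 in the other 3. The cortex of BBB035 entered the cortical means of the choice. Against it, the hippocampus of BBB035 was lower for 98 of the 111 genes (median -0.53). The hippocampus was higher for 68 of the 74 lower genes with a value in both (median 0.77). Against the cerebellum the hippocampus was higher for 82 of the 111 genes (median 0.30) and for 46 of the 76 (median 0.15), with -0.08 over all genes tested. These are ratios of 1 library to 1 library and have no replicate check.

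Brainstem and hippocampus, each of which helped to choose the members, were also set against cortex. Over the 111 genes the median log2 ratio of brainstem to cortex was above 0 in 6 of 6 codes, between 0.21 and 1.14, and over the 76 it was below 0 in 6 of 6, between -0.96 and -0.23. The ratio of hippocampus to cortex was below 0 in 5 of 7 codes over the 111 (-0.91 to 0.26) and above 0 in 7 of 7 over the 76 (0.15 to 0.77). The codes BBB029 and BBB031 were those in which hippocampus and cortex were close or reversed over the 111 genes, at 0.07 and 0.26. In these codes brainstem was 0.96 and 1.14 above cortex. As a description, 0 members passed the call thresholds without the block and 18 with it between brainstem and cortex, where 0.231% and 3.26% of all genes did, and 1 and 16 between hippocampus and cortex, where 0.264% and 2.69% did. With DESeq2 the counts were 3 and 5, where 0.784% and 0.726% of all genes passed. Between hippocampus and striatum 2 members passed with the block and 3 with DESeq2, where 0.033% of all genes did in each, and 0 without the block. Between brainstem and striatum none did in any of these fits, where 0% of all genes did.

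The set medians were also set beside the main axis of variation among the libraries. A principal component analysis of the 11927 tested genes that are not members gave a first component (PC1) that held 28.3% of the variance. Before the limits on the cortex 446 genes met the fold limit, and only the 187 members were taken out. The brainstem and hippocampus libraries that chose the members also entered PC1, so this axis is not free of the choice. The sign of PC1 is arbitrary and was set to give the brainstem of BBB027 a positive score. With that sign, the brainstem library had a higher PC1 score than the hippocampus library of the same code in 6 of 6 codes. Across the 30 libraries, the Pearson correlation of the PC1 score with the median of the 111 genes was 0.91, and with that of the 76 genes -0.59. The libraries share codes, so these are a description without a test. The 10 most abundant genes of a library took 10.9% to 15.6% of its counts in brainstem and 10.7% to 13.8% in hippocampus, and this share was higher in brainstem in 6 of 6 codes. The total count was lower in brainstem in 5 of 6 codes. Between striatum and cortex the PC1 score was higher in striatum in 5 of 7 codes and the share of the 10 most abundant genes in 4 of 7. The part that PC1, the share of the most abundant genes and depth have in the difference was not tested.

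**Figure D5:**
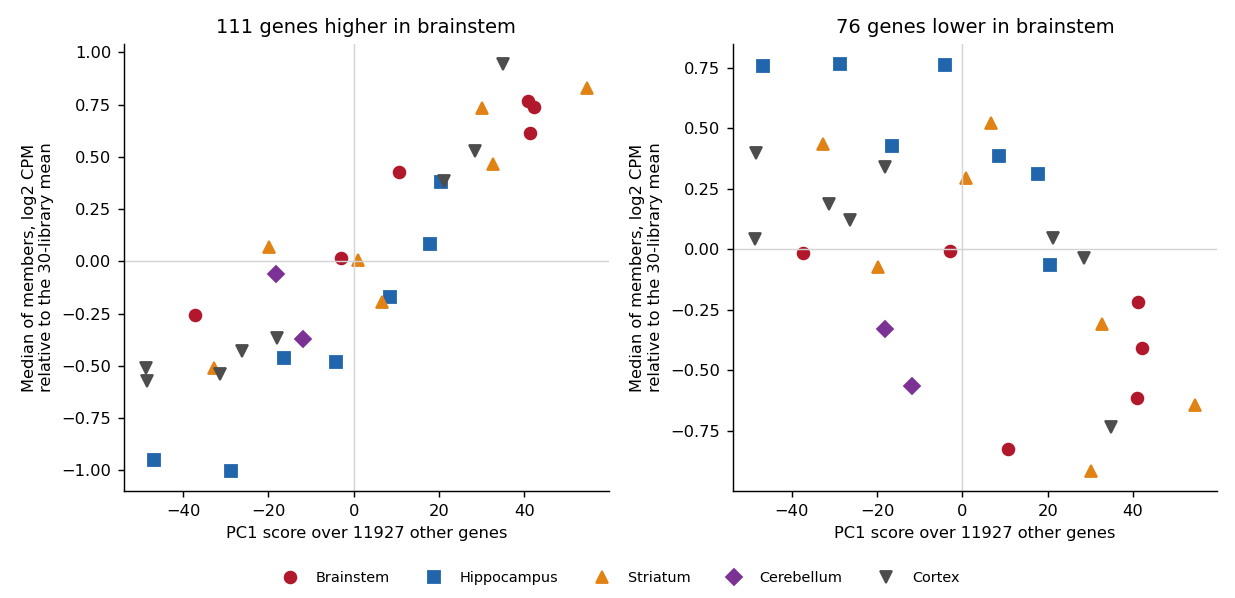
Median of the 111 genes higher in brainstem (left) and of the 76 lower in brainstem (right) in each of the 30 P0D7 libraries, as log2 CPM relative to each gene's mean (y axis), against the score of the library on PC1 of 11927 genes that are not members (x axis). Libraries of higher PC1 score mostly have higher medians on the left (Pearson correlation 0.91) and lower ones on the right (-0.59), with exceptions between libraries of like score, and both cerebellum libraries lie below the others of like score on the right.

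The limit on P0D7 over P0D0 in the cortex left out 31 higher and 53 lower genes. That on P1D7 over P0D7 left out 87 and 140, with 19 and 33 left out by both. Within these limits, cortical levels of the members still differed between isolated vessels and cultured cells. Cortical P0D7 means were above P0D0 means for 45 of the 111 genes, with a median ratio of 0.789, and for 41 of the 76, with a median ratio of 1.19, against 1.11 over all genes tested. The choice bounded the ratios of the members but not those of all genes tested, so these medians are a description. At least 2-fold lower levels at P0D7 were found for 37 of the 111 and 20 of the 76, and at least 2-fold higher levels for 16 and 25. The share of all genes tested past these 2-fold limits was not computed. The P0D0 libraries include BBB037 and BBB038, which P0D7 lacks, and the P0D7 libraries include BBB027 and BBB028, which P0D0 lacks. The paper ascribes part of the difference between these fractions to non-endothelial RNA among the isolated vessels. Whether the members changed within endothelial cells or through the loss of other cells was not tested. After re-plating, the ratio of P1D7 to P0D7 had medians of 1.01 and 0.979. ENSMFAG00000038573 averaged 14.5 ± 10.5 FPKM in cortical P0D7 cells (SD, n = 8) and 95.2 ± 54.1 FPKM in P0D0 vessels (SD, n = 8), and ENSMFAG00000037970 averaged 8.89 ± 7.41 FPKM and 33.5 ± 13.8 FPKM in these fractions. ENSMFAG00000001632 averaged 4.03 ± 2.78 FPKM at P0D7 and 11.8 ± 4.07 FPKM at P0D0. The mean of ENSMFAG00000002871 went the other way, with 80.0 ± 112 FPKM at P0D7 and 42.6 ± 18.4 FPKM at P0D0, but its P0D7 mean rests on the library of BBB035. Its median was lower at P0D7, at 26.8 FPKM against 36.2 FPKM at P0D0, so no direction can be given for this gene.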

How the data were processed

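The authors removed ribosomal, low-quality and short reads in ArrayStudio, aligned the rest to the Cyno.WashU genome with OSA4 and counted read pairs per gene of the Ensembl.R94 model. The deposited tables hold FPKM and estimated counts, of which 1.45% are not whole. The deposited values carry no scaling between libraries beyond that of FPKM, and the authors ran their own comparisons with DESeq2, whose output was not used here. Per-sample columns were matched to samples by their labels. Identifiers were not given symbols here.

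Members were found from FPKM by the fold limit described in the report, with ratios formed within a code. The members, lists and tests were chosen with earlier results of these data known. Counts were rounded and fitted over the 30 P0D7 libraries with edgeR 4.0.16 in R 4.3.3 (TMM, trended dispersion, quasi-likelihood test, structure as the only term). Genes reaching 1 FPKM in 3 or more libraries were kept. A call needed a fold of 1.5 or more and a p of 0.05 or less after Benjamini-Hochberg adjustment over all of them. The scripts were tested on simulated data. Alternatives were the code as a block, DESeq2 1.42.0, limma 3.58.1 on log2 FPKM for the named genes, other size factors, filters, folds and pseudocounts, and each library left out. The block with each library left out was added after the data were seen.

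The codes were taken to pair the libraries because deviations from the structure means correlated above 0.1 in every one of the 37 pairs of the same code (0.112 to 0.839). Correlations between libraries of different codes were not computed, so these values have no baseline. The authors call the libraries of a fraction independent replicates, but the sources used here do not say what a code stands for or which animal gave which library, so the p-values describe these libraries and their spread, which may be technical. Log2 CPM used a prior count of 2. Ratios within codes leave out genes at 0 in either library. Named genes were, in each direction, the 2 members with the largest smallest fold among those with a mean of at least 5 FPKM in the higher structure and at least 4 counts in each library of the lower. The 8633089 to 24450445 counts per P0D7 library cover counting error only, since read pairs carry no molecular identifiers.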

Additional observations from a re-analysis of the deposited data

Results flagged for a closer look

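Among 48 groups of 4 to 10 values examined for a value far from the others, 7 had one. The rule picks about 1 in 20 groups of independent, normally distributed values. FPKM entered without a log and some groups are mirror images of others, so that rate need not hold here. The median of the 76 genes lower in brainstem was -0.74 in the cortical P0D7 library of BBB035 (replicate 7), far below the other 7 cortical libraries. In the same library ENSMFAG00000002871, a gene higher in brainstem, stood at 345 FPKM, and the hippocampus library of BBB035 (replicate 7) stood at 115 FPKM for this gene. Its level in the P0D0 library of BBB032 (replicate 4) was 85.4 FPKM, apart from the other 7 P0D0 libraries. That library was also apart for ENSMFAG00000038573, at 215 FPKM, and for ENSMFAG00000037970, at 64.0 FPKM. ENSMFAG00000037970 stood at 25.03 FPKM in the brainstem library of BBB028 (replicate 2), far above the other 5 brainstem libraries.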

How the results depend on the processing

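The number of members depends on the fold limit. It was 224 higher and 147 lower at 1.2-fold, 33 and 31 at 1.5-fold, and 210 and 236 without the limits on the cortex. Leaving out 1 code in turn gave 121 to 168 higher and 81 to 121 lower genes, the most without BBB032. Other FPKM minimums and CPM in place of FPKM kept both counts within 1.5 times. Calls among the members depend on the block. With the replicate block they were 7 for striatum against cortex, 2 for cerebellum against cortex and 22 for cerebellum against striatum, all 0 without it. Members past the same thresholds, as a description, were 18 with the block for brainstem against cortex (0 without), 16 for hippocampus against cortex (1 without), 2 for hippocampus against striatum (0 without) and 0 for brainstem against striatum with and without it. DESeq2 without the block gave 1 for striatum against cortex, 1 for cerebellum against cortex, 3 for brainstem against cortex, 5 for hippocampus against cortex and 3 for hippocampus against striatum, and the filter of at least 5 FPKM gave 0 for hippocampus against cortex. Leaving out 1 library in turn without the block gave 0 to 0 for striatum against cortex, 0 to 3 for cerebellum against cortex and against striatum, 0 to 3 for brainstem against cortex, 0 to 2 for hippocampus against cortex and 0 to 1 for hippocampus against striatum. The 3 for cerebellum came without its library of BBB035, where the lone library is taken to vary like the others. With the block the ranges were 4 to 17, 0 to 17 and 0 to 57 for the 3 comparisons without brainstem and hippocampus, and the 17 for cerebellum against cortex came without the cortex of BBB031 or without the striatum of BBB035. Shares over all genes were not computed for the fits with a library left out, with or without the block. For the hippocampus of BBB035 against cortex, the members at 1.5-fold gave medians of -1.07 and 1.24, and a pseudocount of 1 gave 0.54 for the lower genes. Of the named genes between striatum and cortex, ENSMFAG00000037970 passed the threshold only with the block, and it and ENSMFAG00000038573 kept their direction in all alternatives. The other 2 genes, neither of them called, turned direction in 17 alternatives. ENSMFAG00000001632 was at 0.37 with the replicate block and at 0.10 and 0.22 with limma and pseudocounts of 1 and 0.1, and leaving out 1 library in turn without the block gave -0.32 to 0.20 for it and -0.21 to 1.06 for ENSMFAG00000002871. The cause of these differences was not tested, and 2 cerebellum libraries and the estimate of the spread shared by 5 structures limit all of them.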
